A study of Arabidopsis thaliana with 19 samples.

Results

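Arabidopsis thaliana seedlings that overexpress ATR1 were compared directly with seedlings that overexpress MYB51. The members are the 4 arrays whose titles name these constructs, 2 of ATR1_OE and 2 of MYB51_OE, out of 19 arrays in the series. The 2 wild type arrays of the same experiment are given as side values and took no part in the difference. ATR1, also called MYB34, and MYB51 are R2R3 MYB transcription factors that switch on the genes of indole glucosinolate synthesis. Indole glucosinolates are sulfur-rich defence compounds made from tryptophan through indole-3-acetaldoxime, and that intermediate also stands close to auxin synthesis in this plant family. The same pathway needs activated sulfate, which links it to sulfate assimilation. The comparison asks where the transcriptomes under the 2 regulators part.

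All 4 arrays came from 14 day old seedlings grown at 20 °C under 10 h of light and 14 h of darkness, with the cotyledons and hypocotyls cut away. Total RNA (15 µg) was turned into labelled cRNA for Affymetrix ATH1 arrays, 1 array per sample. The labels give no accession, no promoter behind the overexpressed genes and no number of independent lines or pooled plants. For ATR1_OE replicate 2 the source field names no construct, and its title was followed. No label states that replicates came from separate growths, so the spread behind the p-values, which is pooled over the replicates of all 9 groups of the series, may be technical in part. The probe sets of ATR1 and MYB51 are not named in the annotation used here, so overexpression could not be checked by gene name. Because tissue of several cell types was measured, fewer cells of a type and less RNA per cell cannot be told apart in any result.

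The deposited value is a MAS5 signal, a scaled brightness of a probe set. Median signals were 79.5 and 78.4 on the ATR1_OE arrays, 87.3 and 84.0 on the MYB51_OE arrays, and 97.7 and 89.2 on the wild type arrays. The ATR1_OE arrays correlated at r = 0.964 with each other over the tested probe sets, on the log2 scale. The MYB51_OE arrays correlated at 0.941 with each other, and MYB51_OE replicate 2 correlated at 0.945 with ATR1_OE replicate 1. MYB51_OE replicate 2 thus stood as close to an ATR1_OE array as to its own replicate, and MYB51_OE replicate 1 was nearest to a wild type array (0.943). The 3′ over 5′ ratio of the actin control was 2.33 on MYB51_OE replicate 1 and 1.40 on replicate 2, against 1.69 and 1.67 in ATR1_OE. The same ratio of the GAPDH control was higher on both MYB51_OE arrays (1.22 and 1.12) than on the ATR1_OE arrays (0.956 and 1.06) and the wild type arrays (0.843 and 0.946). The part of RNA quality in the results was not tested. Of 28 listed leaf photosynthesis markers 4 were tested, and RCA, one of them, gave at least 8505.9 on each of the 4 arrays. The root hair marker EXPA7 gave 17.8 to 44.2. The listed flower and seed markers were not among the tested named probe sets, so other organs could not be looked for through them.

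Of 15627 probe sets tested, 417 were called, meaning that limma's adjusted p for ATR1_OE minus MYB51_OE was under 0.05. That is 2.67% of those tested. Of the calls 150 (0.960% of those tested) were higher in ATR1_OE and 267 (1.71%) were lower. At an unadjusted p under 0.05 there were 2958. On the log2 scale the median size of a called difference was 1.55 among the higher and 1.43 among the lower ones, and 357 of the calls differed at least 2 fold. The ATR1_OE and MYB51_OE arrays did not overlap at any of the 417 called probe sets, and they did not overlap at 44.6% of all tested. Wild type lay nearer to MYB51_OE than to ATR1_OE at 134 of the 150 called higher (89.3%) and at 253 of the 267 called lower (94.8%), against 67.5% of all tested probe sets. Only 191 of the 417 carried 1 gene in the array annotation, 53 higher and 138 lower, while 220 were not listed and 6 matched several genes.

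The number of calls rested on each array and on the spread shared across the 9 groups of the series. Leaving out MYB51_OE replicate 1 left 64 calls, and leaving out MYB51_OE replicate 2 raised the count to 713. Without ATR1_OE replicate 1 there were 85 calls, and without ATR1_OE replicate 2 there were 141. With the 6 arrays of the experiment alone, and so without the spread of the other groups, 11 were called. All 417 differences kept their sign in these 5 settings, but none of the 5 could have reversed it. The ATR1_OE and MYB51_OE arrays did not overlap at any of the 417, and the fit to 6 arrays uses the same group means. Of the 72 called probe sets described here, 9 stayed called whichever of the 4 arrays was left out. These were BGLU28, AT1G13990, AT3G05600, scpl50, AT3G21540, AT5G13520 and 3 probe sets without a listed gene.

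**Figure D1:**
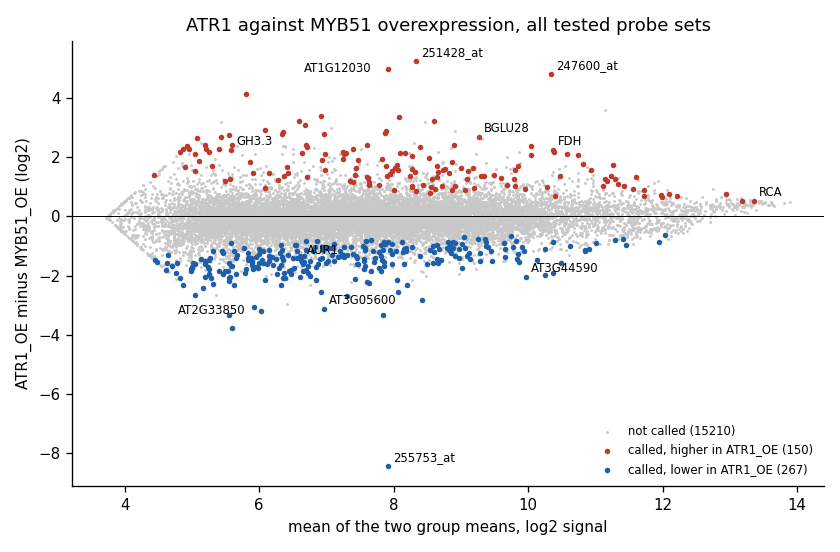
Difference between ATR1_OE and MYB51_OE (log2, vertical axis) against the mean of the group means (log2 MAS5 signal, horizontal axis) for 15627 probe sets, with 150 called higher in ATR1_OE in red, 267 called lower in blue and the rest in grey. The probe sets 251428_at, 247600_at and 255753_at, which have no listed gene, lie at 5.25, 4.81 and -8.43, the first and the last being the extremes of the plot.

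The largest difference in each direction belonged to a probe set without a listed gene, 251428_at upward (5.25) and 255753_at downward (-8.43). Probe set 247600_at gave signals of 7094.4 and 6618.9 in ATR1_OE and of 203.2 and 295.5 in MYB51_OE. Its signal on the other 17 arrays of the series reached at most 386.7, so both ATR1_OE arrays stood apart from all others. The log2 difference was 4.81 (SE 0.37; limma adjusted p = 7.23e-06). Probe set 255753_at behaved the other way, with 6.15 and 3.89 in ATR1_OE, both below the floor set for dim signals, and 3331.2 and 6089.8 in MYB51_OE. It was at least 344-fold lower in ATR1_OE (limma adjusted p = 6.38e-07), and no other array of the series passed 100.8. These 2 probe sets stayed called in each of the 15 alternatives run. Probe set 251428_at gave 2571.4 and 1535.7 in ATR1_OE against 25.2 and 109.1 in MYB51_OE. Its difference was 5.25 (SE 0.52; limma adjusted p = 0.000151), and outside ATR1_OE its highest signal was 251.8. Probe set 258158_at was at 13 and 6.27 in ATR1_OE, at or below the floor, and at 65.1 and 485.8 in MYB51_OE, with wild type at 492.8 and 272.6. It was at least 13.6-fold lower in ATR1_OE (limma adjusted p = 0.0291), and the call was lost without ATR1_OE replicate 1 (difference -3.83), without ATR1_OE replicate 2 (-3.70) or without MYB51_OE replicate 2 (-2.31).

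The pathway that both factors control was measured through few named genes, and none of its indole or tryptophan genes was called. UGT74B1, the glucosyltransferase that completes the first sugar step of the glucosinolate core, was the only tested probe set of 18 listed indole and core genes. Its signals were 2428.5 and 2623.9 in ATR1_OE and 1961.0 and 2922.3 in MYB51_OE, so the ATR1_OE values lay inside the MYB51_OE range. Both groups stood above the wild type signals of 498.2 and 200.7. The difference was 0.08 (95% interval -0.76 to 0.92; limma adjusted p = 0.951). That interval is wide, so equal UGT74B1 levels in the 2 lines were not shown.

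Tryptophan and shikimate synthesis, which supplies the precursor, had 5 tested genes of 23 listed. Limma called none, none reached an unadjusted p under 0.05, and their median difference was 0.09 against -0.05 for all tested probe sets. AT2G04400, indole-3-glycerol phosphate synthase, gave 6705.0 and 4946.4 in ATR1_OE and 5043.5 and 5825.0 in MYB51_OE. These values overlapped, and wild type was at 797.8 and 726.3. The difference of AT2G04400 was 0.09 (95% interval -0.42 to 0.60). AT1G22410, a first enzyme of the shikimate pathway, also overlapped, with 4553.8 and 3012.1 against 4168.8 and 4693.9 (difference -0.26, interval -0.97 to 0.46). AT5G66120, 3-dehydroquinate synthase, was at 2512.6 and 2859.2 in ATR1_OE and at 2096.5 and 1992.7 in MYB51_OE. Its groups did not overlap, yet the difference of 0.39 was not called (limma adjusted p = 0.283). The other 2, AT5G48220 and AT4G02610, differed by -0.25 and 0.11. CYP71B6, the only tested gene of the camalexin list and a cytochrome P450 of indole metabolism, differed by -0.07 (interval -0.66 to 0.51).

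Aliphatic glucosinolates are made from methionine by a parallel set of enzymes. Of 26 listed genes 6 were tested, 1 was called higher, against 0.960% of all tested, and the median difference was -0.03. The called gene was AT2G25450, listed as GSL-OH, a dioxygenase that hydroxylates an alkenyl side chain. It gave 37.4 and 33.4 in ATR1_OE and 4.52 and 2.34 in MYB51_OE, where both arrays lay at the floor, as did both wild type arrays. It was at least 2.64-fold higher in ATR1_OE (limma adjusted p = 0.0340). The signal is dim, and the call was lost when any 1 of the 4 arrays was left out, with differences of 1.32 to 1.48. GSTU20, a glutathione transferase of the pathway, was at 3141.6 and 2414.2 against 1483.9 and 1669.0, without overlap (difference 0.81; limma adjusted p = 0.312, not called). AT2G31790, a glucosyltransferase counterpart of UGT74B1, differed by 0.02 (interval -0.69 to 0.73). AOP1 and AOP3, dioxygenases of side chain modification, had lower signals in ATR1_OE on both arrays, by 0.65 and 0.58 on the log2 scale, and neither was called. BCAT4, the aminotransferase that opens methionine chain elongation, differed by -0.07 with a wide interval of -1.73 to 1.58.

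**Figure D2:**
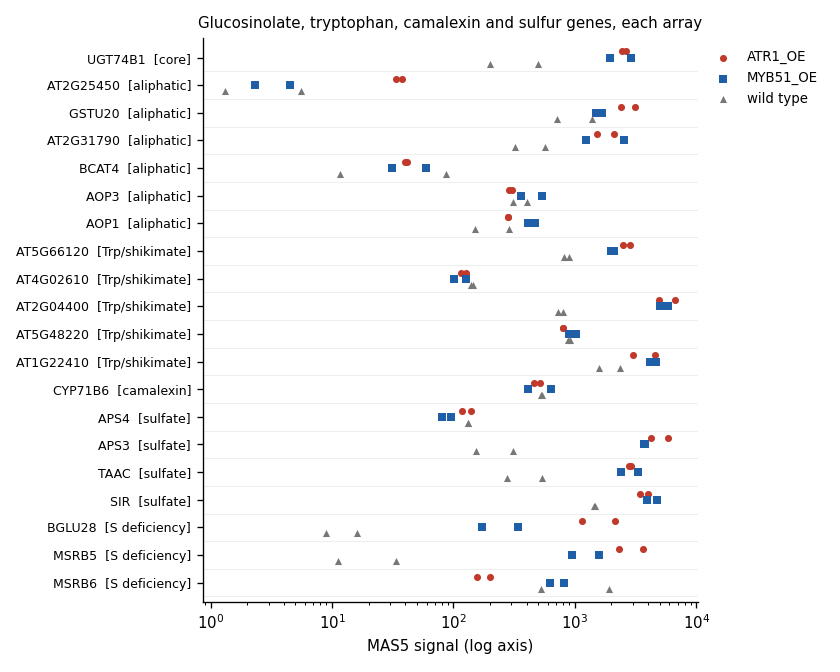
MAS5 signal (log axis) on each array for the tested genes of glucosinolate, tryptophan, camalexin and sulfur metabolism, with ATR1_OE as red circles, MYB51_OE as blue squares and wild type as grey triangles. The ATR1_OE and MYB51_OE points of UGT74B1, AT2G04400 and SIR overlap, while those of BGLU28 are separate, at 1143.7 to 2128.6 against 172.4 to 342.7.

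Sulfate assimilation feeds both the thioglucose sulfur and the sulfate group of glucosinolates. Limma called none of its 4 tested genes, out of 31 listed. APS4 alone reached an unadjusted p under 0.05, and the median difference was 0.21. APS3, an ATP sulfurylase that activates sulfate, gave 5820.9 and 4216.9 in ATR1_OE and 3788.6 and 3697.2 in MYB51_OE, against 310.0 and 151.9 in wild type. The difference between the overexpressing lines was 0.40 (interval -0.31 to 1.12). SIR, sulfite reductase, had 4018.6 and 3455.1 against 3901.9 and 4728.5, with overlap and a difference of -0.21 (interval -0.67 to 0.26). TAAC, a plastid carrier listed for the transport of activated sulfate, differed by 0.03 (interval -0.88 to 0.93), and APS4 by 0.55 (limma adjusted p = 0.202).

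BGLU28, a beta-glucosidase that marks sulfur deficiency, was higher in ATR1_OE. Its signals were 2128.6 and 1143.7 in ATR1_OE and 172.4 and 342.7 in MYB51_OE, with wild type at 8.95 and 16. Both lines were above wild type, and ATR1_OE was 6.42-fold above MYB51_OE (log2 difference 2.68, SE 0.33; limma adjusted p = 0.000924). Leaving out 1 array at a time gave differences of 2.19 to 3.18, each called. MSRB5 and MSRB6, members of a family that repairs oxidised methionine, pointed in opposite directions. MSRB5 had 3647.3 and 2311.5 in ATR1_OE against 947.9 and 1570.8 in MYB51_OE (difference 1.25; limma adjusted p = 0.221). MSRB6 had 198.5 and 157.3 against 627.4 and 820.5 (difference -2.02; limma adjusted p = 0.169). The groups did not overlap for either gene, as at 44.6% of all tested probe sets, and neither passed the test. Among 10 tested beta-glucosidases, a family added after values were seen, 1 was called higher, BGLU28, against 0.960% of all tested. The family median was -0.13.

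Auxin response genes were called higher in ATR1_OE or had higher signals there without a call. Of 25 listed genes 5 were tested, and all 5 had higher signals on both ATR1_OE arrays. Among all tested probe sets the groups did not overlap, in either direction, at 44.6%. Limma called 3 of the 5 higher, a share of 60% against 0.960% of all tested called higher. Their median difference was 2.07, against -0.05 for all tested. WES1 (GH3.5), an enzyme that joins auxin to amino acids, gave 298.8 and 335.5 in ATR1_OE and 59.1 and 93.1 in MYB51_OE, with wild type at 67.3 and 43.6. Its difference was 2.09 (SE 0.40; limma adjusted p = 0.0137). GH3.3, of the same enzyme family, gave 172.7 and 62.2 against 18.2 and 26.8, and both wild type arrays lay at the floor. It was 4.69-fold higher (limma adjusted p = 0.0207), although its ATR1_OE arrays differed widely. HAT2, a homeodomain factor that responds quickly to auxin, gave 586.8 and 492.1 against 144.4 and 251.4 (difference 1.5; limma adjusted p = 0.0352). IAA29, an Aux/IAA repressor, had 246.6 and 339.7 against 89.7 and 113.0 and missed the threshold (difference 1.52; limma adjusted p = 0.0642). GH3.17 had 118.1 and 103.6 against 7.71 and 52.3 (difference 2.07, limma adjusted p = 0.0931). Its signal on MYB51_OE replicate 1 lay below the floor, so that difference depends in part on the floor. The GH3 family as a whole, added after values were seen, had 4 tested members, 3 positive and 1 negative, at -0.13. The calls of WES1, GH3.3 and HAT2 were all lost without ATR1_OE replicate 1 (differences 2.18, 1.49 and 1.37) or without MYB51_OE replicate 1 (1.77, 1.95 and 1.1). Those of WES1 and HAT2 were also lost without ATR1_OE replicate 2 (2.01 and 1.62).

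Genes that make auxin had differences below 0 without a call. YUC2, YUC4 and YUC6, flavin monooxygenases of auxin synthesis, were the 3 tested of 15 listed. Limma called none, and none reached an unadjusted p under 0.05. Their differences were -0.27, -0.36 and -0.25, and YUC4 was at the floor on both ATR1_OE arrays. The intervals of YUC2 (-0.83 to 0.30) and YUC6 (-1.49 to 0.98) do not exclude a modest change. The other 2 tested members of the Aux/IAA family besides IAA29 were not called, and the median of all 3 was 0.15.

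Beyond these lists, the 12 largest called differences upward, among probe sets with 1 gene, had wild type nearer to MYB51_OE in all but 1 case. The same held for 89.3% of all probe sets called higher. AT1G12030 gave 2347.3 and 772.5 in ATR1_OE and 6.68 and 137.6 in MYB51_OE, with wild type at 4.41 and 2.53. Its difference of 4.98 (SE 0.75; limma adjusted p = 0.00451) depends in part on the floor, and it ran from 3.29 without MYB51_OE replicate 1 to 6.67 without MYB51_OE replicate 2. The call was lost without ATR1_OE replicate 1 (4.18). AT1G13990 had close replicates, with 752.1 and 757.0 against 115.7 and 190.1. Its difference was 2.35 (SE 0.24; limma adjusted p = 0.000176), and it stayed between 1.99 and 2.71 with any 1 array left out. FDH, formate dehydrogenase, a mitochondrial enzyme that oxidises formate, gave 2411.8 and 3425.1 against 305.9 and 1207.9. The MYB51_OE arrays differed from each other nearly as much as the groups did, and the FDH difference of 2.24 (limma adjusted p = 0.0187) became 1.25 without MYB51_OE replicate 1, which ended the call. It was also lost without either ATR1_OE array (2.49 and 1.99). AT4G37180 was the one gene of the 12 for which wild type, at 193.5 and 161.0, lay nearer to ATR1_OE (373.1 and 130.0) than to MYB51_OE (33.3 and 27.9). Its difference of 2.85 (limma adjusted p = 0.0324) lost the call without ATR1_OE replicate 1 (2.09) or either MYB51_OE array (2.98 and 2.72). The others were AT4G01870, AT1G23120, AT5G62280, AT5G03490, AT4G20820 and AT4G18340, with differences from 2.18 for AT4G18340 to 3.34 for AT4G01870. All 6 of these lost the call without ATR1_OE replicate 1 or without MYB51_OE replicate 1, where AT4G18340 was at 2.44 and 1.77 and AT4G01870 at 2.73 and 2.50.

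The 12 largest differences downward had wild type nearer to MYB51_OE in each case, as had 94.8% of all probe sets called lower. AT3G05600 gave 38.3 and 45.6 in ATR1_OE and 631.3 and 215.4 in MYB51_OE, with wild type at 292.2 and 320.1. It was 8.82-fold lower in ATR1_OE (difference -3.14, SE 0.42; limma adjusted p = 0.00166), and the difference stayed between -3.92 and -2.36 with any 1 array left out, called each time. ASPGB1, an asparaginase that frees ammonium from asparagine, gave 51.3 and 48.6 against 430.7 and 200.3. The ATR1_OE arrays nearly coincided, and the ASPGB1 difference was -2.56 (limma adjusted p = 0.0137), with the call lost without MYB51_OE replicate 1 (-2.0) or either ATR1_OE array (-2.60 and -2.52). Gene scpl50, of the serine carboxypeptidase-like family, had 35.1 and 44.7 against 239.1 and 119.3 (difference -2.09; limma adjusted p = 0.00391). A further member of that family, scpl42, was called at -0.97, a call kept only without ATR1_OE replicate 2 (-1.28), while the median of the 15 tested members was -0.08. AT2G33850 had the largest fall of the 12, at -3.18, with 1 of its ATR1_OE arrays at the floor, and lost the call without ATR1_OE replicate 1 (-2.51) or MYB51_OE replicate 1 (-2.26). The others were AT4G29030, AT3G21540, AT3G02640, AT5G13520, AT1G48100, AT5G17160, AT3G02120 and AT5G62550, with differences from -2.70 to -2.08. Apart from AT3G21540 and AT5G13520, these 8 lost the call without MYB51_OE replicate 1, where AT4G29030 was at -2.26 and AT5G62550 at -1.33.

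**Figure D3:**
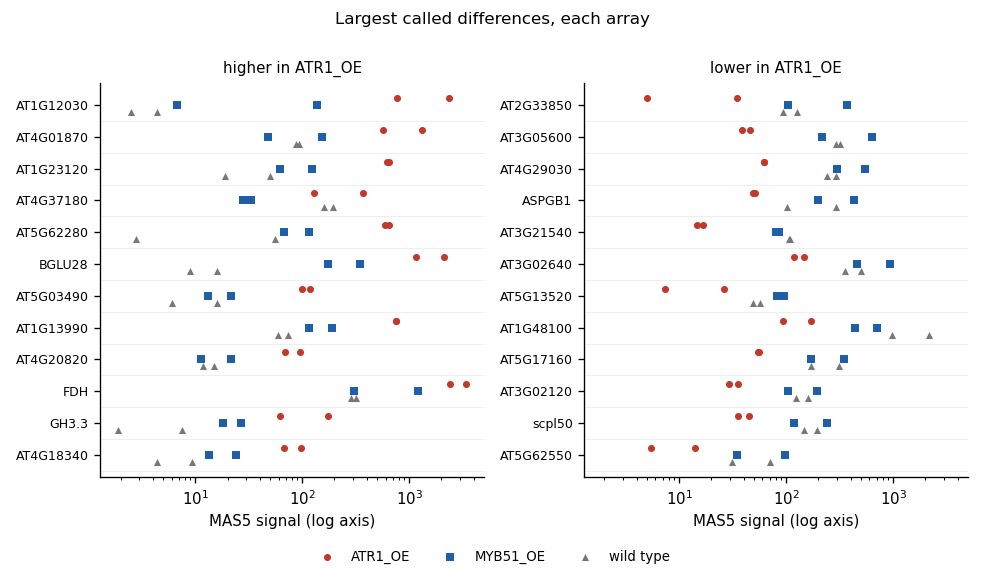
MAS5 signal (log axis) on each array for the 12 largest called differences in each direction among probe sets with 1 gene, with ATR1_OE as red circles, MYB51_OE as blue squares and wild type as grey triangles. The 24 genes were chosen among those where ATR1_OE and MYB51_OE do not overlap. The wild type mean lies nearer to MYB51_OE for all but AT4G37180.

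Genes of the dividing cell were lower in ATR1_OE wherever they were called. AUR1, an Aurora kinase that acts in mitosis, gave 149.8 and 184.5 in ATR1_OE and 418.6 and 324.7 in MYB51_OE, with wild type at 318.7 and 466.8. Its difference was -1.15 (SE 0.28; limma adjusted p = 0.0450). AUR2 and AUR3 had differences of -1.47 (limma adjusted p = 0.0543) and -0.86 (limma adjusted p = 0.117) and were not called, although their groups did not overlap. These 3 were the tested members of 12 listed cell division genes, and their median was -1.15, against -0.05 for all tested. Among all tested probe sets 1.71% were called lower, and the groups did not overlap at 44.6%. The families that follow were chosen after values were seen and are described by counts. Of 5 tested DNA replication genes 2 were called lower, PRL and PSF2, all 5 were negative and the median was -0.74, where 1.71% of all tested probe sets were called lower and 54.8% were negative. PRL, the MCM7 subunit of the replicative helicase, gave 136.5 and 104.7 against 690.7 and 265.0 (difference -1.84; limma adjusted p = 0.0256). PSF2, a subunit of the GINS complex that loads with that helicase, gave 30.6 and 35.4 against 85.8 and 64.4 (difference -1.18). Of 8 tested histone genes 1 was called, HTR12, which encodes the centromeric histone H3, at 11.5 and 32.1 against 73.4 and 63.5 (difference -1.70). HTB1 and HTB2, both encoding histone H2B, had differences of -1.20 and -1.25 and were not called. Of the 8 histone genes 6 were negative and 2 positive, up to 0.50 for HIS1-3, and their median of -0.66 became -0.26 without MYB51_OE replicate 1. KINESIN-12B, a motor of the phragmoplast, was called at -1.84, with 12 and 20.3 against 80.0 and 44.3. It was 1 of 2 tested members of the kinesin list, and the other differed by -0.18 without a call. The MYB51_OE signals of PRL, AUR2 and HTB1 were far higher on replicate 1 than on replicate 2, and without replicate 1 none of AUR1 (-0.97), PRL (-1.15), PSF2 (-0.97), HTR12 (-1.60) and KINESIN-12B (-1.41) stayed called. Without ATR1_OE replicate 1 those 5 calls were lost as well, at -1.0, -2.03, -1.07, -1.09 and -1.56. AUR1, PRL and PSF2 were further lost without ATR1_OE replicate 2, at -1.30, -1.65 and -1.28.

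Of 7 tested genes of stomatal and leaf development, 2 were called lower, SPCH and JAG, against 1.71% of all tested. Of the 7, 5 were negative (71.4%, against 54.8% of all tested) and 2 positive. The median of the 7 was -0.71, or -0.43 without ATR1_OE replicate 1 and -0.47 without MYB51_OE replicate 2. SPCH, the factor that starts the stomatal lineage, gave 99.1 and 153.6 in ATR1_OE and 291.4 and 434.5 in MYB51_OE, with wild type at 335.1 and 373.1 (difference -1.53; limma adjusted p = 0.0328). Its successor MUTE had 44.6 and 24.3 against 91.1 and 57.2, and was not called (difference -1.13; limma adjusted p = 0.145). JAG, a zinc finger factor of lateral organ growth, lay at the floor on both ATR1_OE arrays and at 45.4 and 29.2 in MYB51_OE. It was at least 2.78-fold lower in ATR1_OE (limma adjusted p = 0.0187). TUB7, a beta-tubulin, gave 343.4 and 262.6 against 947.0 and 534.6 (difference -1.24; limma adjusted p = 0.0372). It was the only one of 7 tested tubulins called, 5 of which were negative (71.4%, against 54.8% of all tested). TUA1, an alpha-tubulin, pointed upward at 0.72 without a call, and the median of the 7 was -0.43, or -0.05 without MYB51_OE replicate 1. Of 14 tested expansins, which loosen the cell wall, 2 were called lower, against 1.71% of all tested. Of the 14, 10 were negative (71.4%, against 54.8% of all tested) and 4 positive, and the median was -0.22. It ran from -0.57 without MYB51_OE replicate 1 to -0.03 without ATR1_OE replicate 2. EXPA15 gave 450.7 and 363.6 against 1023.6 and 895.8 (difference -1.24), and EXPB3 gave 344.9 and 310.8 against 712.9 and 664.3 (difference -1.07). EXPA8 of the same family pointed upward, with 4665.3 and 5143.2 against 2032.5 and 2131.5, and was not called (difference 1.23; limma adjusted p = 0.203). The calls of JAG, TUB7, EXPA15 and EXPB3 were kept without MYB51_OE replicate 2 and lost without any other 1 array, at differences of -1.54 to -1.16, -1.44 to -0.83, -1.40 to -1.09 and -1.15 to -1.0. The call of SPCH was lost without any 1 array, at -1.84 to -1.21.

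Genes of the cytosolic ribosome had lower signals in ATR1_OE almost throughout, although few passed the test. Of 120 tested probe sets for cytosolic ribosomal proteins, out of 224 listed loci, 117 had a negative difference (97.5%, against 54.8% of all tested probe sets). Their median was -0.67 on the log2 scale, against -0.05. Limma called 10 of them lower (8.33%, against 1.71% of all tested) and 0 higher. At an unadjusted p under 0.05 there were 74 lower and 0 higher. Of all 15627 tested probe sets, 2958 reached that p in either direction. The family was added after values were seen. The median signal of the 120 was 1330.3 and 1113.9 on the ATR1_OE arrays, 2274.4 and 1720.3 on the MYB51_OE arrays, and 2075.6 and 2287.5 on the wild type arrays. Both ATR1_OE arrays were thus below the other 4. AT3G44590, an acidic stalk protein of the large subunit, had the largest fall, with 562.3 and 436.2 against 2174.6 and 1906.4 (difference -2.04, SE 0.35; limma adjusted p = 0.00785). The call was lost without ATR1_OE replicate 2 (-1.86) or MYB51_OE replicate 1 (-1.94). AT4G10450, a protein of the large subunit, gave 699.6 and 647.3 against 2384.8 and 1487.5 (difference -1.48). Among small subunit proteins AT5G58420 was called at -1.37 and AT3G57490 at -1.30. The highest difference in the family was 0.14.

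The shift of the family was smaller, and its calls were gone, without some arrays. The median was -0.49 without MYB51_OE replicate 1, where 109 of the 120 were negative and 0 were called. Without ATR1_OE replicate 2 the median was also -0.49, 111 were negative and 0 were called. Without ATR1_OE replicate 1 the median was -0.82 with 2 called, and without MYB51_OE replicate 2 it was -0.85 with 11 called. After quantile normalization the median was -0.68 with 12 called, while 3 were called with no filter on low signals and 2 without the intensity trend in limma's spread. Ribosomal protein genes occur as near-identical copies in this genome, so that some probe sets may measure more than 1 copy, and the 120 are not independent of each other. The loci were assigned to the family from general knowledge of the genome, since the RefSeq table gives nearly all of them no descriptive name.

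**Figure D4:**
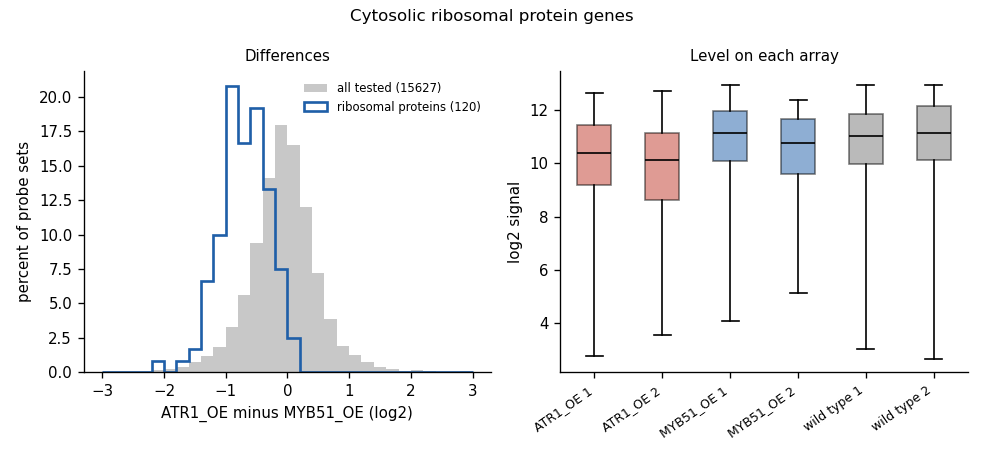
Left, percent of probe sets by difference between ATR1_OE and MYB51_OE (log2) for 120 cytosolic ribosomal protein probe sets (blue line) and all 15627 tested (grey, values beyond the axis drawn in the end bars). Right, log2 signal of the 120 on each array, with the median, the quartiles and whiskers to the lowest and highest value; the 2 ATR1_OE arrays have the lowest medians.

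Ribosome assembly factors, which mature the ribosomal subunits in the nucleolus, also had lower signals. All 10 tested of 24 listed had a negative difference, 4 were called lower and the median was -1.29, where 1.71% of all tested were called lower and 54.8% were negative. AT3G21540, a WD-repeat protein listed for the small subunit, gave 16.7 and 14.6 in ATR1_OE and 80.8 and 85.2 in MYB51_OE, with wild type at 108.0 and 105.6. Replicates were close in each group, and the difference was -2.41 (SE 0.33; limma adjusted p = 0.00240), between -2.51 and -2.31 with any 1 array left out and called each time. YAO, a nucleolar WD-repeat protein needed in embryo sac development, gave 122.7 and 81.8 against 320.3 and 288.1 (difference -1.60; limma adjusted p = 0.0291). AT3G05060, listed as a NOP58-type nucleolar protein, was called at -1.69, and AT5G14520, listed as the pescadillo homologue, at -1.44. The calls of YAO, AT3G05060 and AT5G14520 were lost without MYB51_OE replicate 1, at -1.52, -1.44 and -1.36. AT5G14520 was lost without MYB51_OE replicate 2 too (-1.52). All 3 were also lost without ATR1_OE replicate 1 (-1.89, -2.09 and -1.83) or ATR1_OE replicate 2 (-1.31, -1.28 and -1.05).

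The 4 photosynthesis markers had higher signals in ATR1_OE as deposited, and 1 was called, against 0.960% of all tested called higher. The shift of the 4 markers was mostly gone under another scaling. After quantile normalization their median fell from 0.49 to 0.10, 1 of the 4 was negative and none was called. RCA, the activase of Rubisco, gave 13671.1 and 11655.4 in ATR1_OE and 9030.7 and 8505.9 in MYB51_OE, with wild type at 10286.6 and 11539.2. It was 1.44-fold higher in ATR1_OE (difference 0.53, SE 0.13; limma adjusted p = 0.0493), a call lost without any 1 array, at 0.41 to 0.64. After quantile normalization the RCA difference was 0.13 (limma adjusted p = 0.613). PRK, LHCB4.1 and PSAE-1, of the Calvin cycle, the light-harvesting antenna and photosystem I, differed by 0.57, 0.46 and 0.31, none called and none with overlapping groups. The groups did not overlap at 44.6% of all tested probe sets. Summed over the 4 leaf markers, the signal was 57670 and 45838 in ATR1_OE, 38500 and 36228 in MYB51_OE, and 41344 and 44682 in wild type. This leaf marker sum moved with the groups, and its part in the other differences was not tested. Of the 68 tested plastid-encoded probe sets 0 were called by limma and 1 reached an unadjusted p under 0.05. Their median difference was -0.03, but -0.39 without MYB51_OE replicate 1 and 0.27 without MYB51_OE replicate 2. Of the 68, 16 had arrays that did not overlap, a smaller share than the 44.6% of all tested.

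**Figure D5:**
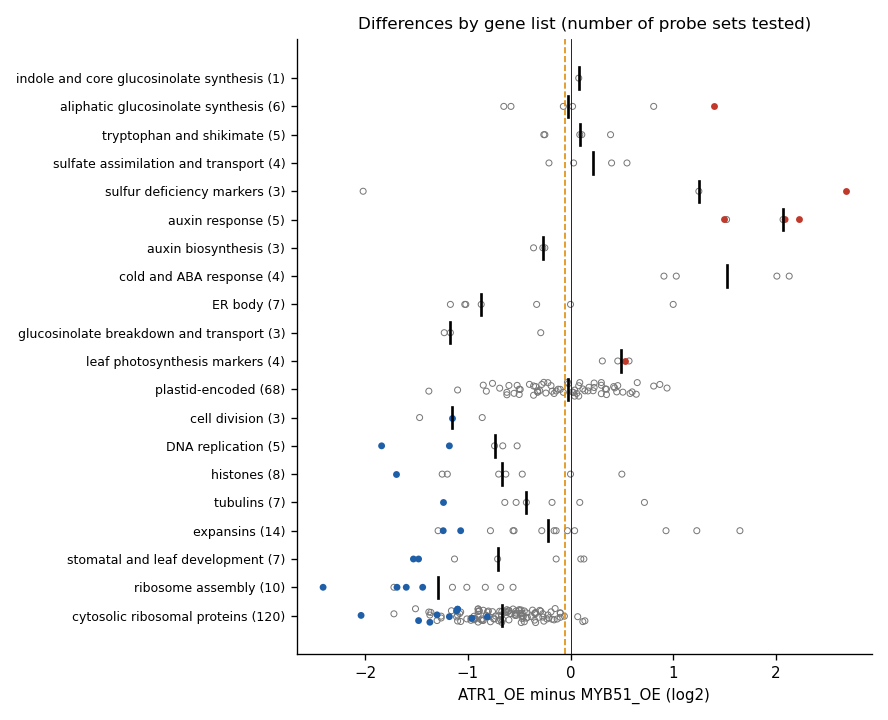
Difference between ATR1_OE and MYB51_OE (log2) of each tested probe set in 20 gene lists, with the number tested in parentheses; filled points were called (red higher, blue lower in ATR1_OE), open points were not, black bars are list medians and the dashed line is the median of all tested probe sets, -0.05. The auxin response median lies at 2.07, the ribosome assembly median at -1.29 and the tryptophan and shikimate median at 0.09.

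Storage, activation and transport of glucosinolates showed mostly values below 0, without a call. GTR2, a transporter that loads glucosinolates into the phloem, gave 63.4 and 125.1 in ATR1_OE and 219.8 and 199.1 in MYB51_OE (difference -1.23; limma adjusted p = 0.0685). Its relative GTR1 overlapped between the groups (difference -0.29). PYK10, the main beta-glucosidase of the ER body, a defence organelle, had 113.2 and 175.4 against 382.5 and 264.3 (difference -1.17; limma adjusted p = 0.141). NAI2 and NAI1, which shape and control the ER body, differed by -0.87 and -1.02. JAL23, a lectin of the same system, pointed the other way at 1.0. Of the 7 tested ER body genes limma called 0, and the median was -0.87. An unadjusted p under 0.05 was reached by 5, 4 of them lower, and by 2958 of all 15627 tested probe sets in either direction. NAI2 was called only without MYB51_OE replicate 2 (-1.29).

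Cold-induced genes varied widely within a line. COR15A, a chloroplast protein induced by cold, gave 2079.8 and 190.5 on the ATR1_OE arrays and 65.8 and 313.3 on the MYB51_OE arrays, and wild type likewise spread from 837.4 to 49.3. LTI30, COR47 and COR15B, also induced by cold, were higher on ATR1_OE replicate 1 than on any MYB51_OE array, while ATR1_OE replicate 2 was not. None of the 4 was called, and their median of 1.52 became 0.02 without ATR1_OE replicate 1.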

How the data were processed

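The deposited values are MAS5 signals, which the authors scaled to a trimmed mean of 250. That mean was computed here on ATR1_OE replicate 1 only, with 2% trimmed at each end. MAS5 is named in the submitters' processing notes, and its version and detection calls are not given in the sources used here. The deposited intensity of each probe set was raised to its array's 20th percentile, taken over all 22810 probe sets, and put on the log2 scale, which the authors' file does not use. Of 22746 probe sets other than controls, 15627 reached the 40th percentile on at least 2 of 19 arrays and were tested.

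A model with 1 mean for each of 9 groups was fitted to the 19 arrays with limma 3.58.1 in R 4.3.3, with an intensity trend in the moderated spread (10 residual and 5.62 prior degrees of freedom). The tested contrast was ATR1_OE minus MYB51_OE, two-sided, with Benjamini-Hochberg adjustment over all tested probe sets and a threshold of 0.05. Intervals cover 95% and are not adjusted. Where all arrays of a group lay at the floor, the fold is a bound ("at least"). The number of arrays, 2 per group, limits the precision. The fitting code was tested on simulated data. Tables and plots used Python 3.11.15 and matplotlib 3.10.9.

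Probe sets were named from the platform annotation and RefSeq's TAIR10.1 table. A single gene was given for 8577 tested probe sets (8453 genes) and several genes for 311, while 6739 had no entry. The files name no genome build, so no coordinates are given. Named were the tested genes of the glucosinolate, tryptophan and camalexin lists, the 12 largest called differences in each direction with non-overlapping arrays, up to 4 genes of each other list, and up to 2 unlisted probe sets in each direction. Members and lists were chosen with earlier results of these data known, and the families from kinesins to ribosome assembly were added, with the genes named in them, after values were seen. Each of 15 alternatives was refitted; where one left a group with 1 array, that array was assumed to vary like the other groups. Replicate numbers did not pair the arrays (see the closing section).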

Additional observations from a re-analysis of the deposited data

How the results depend on the processing

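The main count was 417 probe sets, 150 higher and 267 lower in ATR1_OE. Leaving out 1 array at a time gave 64 to 713 calls, 24 to 234 higher and 40 to 479 lower. With no filter on low signals there were 261 calls, 96 higher and 165 lower, and after quantile normalization 168 were lower. With the 6 arrays of the experiment alone 11 were called, 5 higher and 6 lower, and with the 4 arrays alone 2 were called, 1 in each direction, so the main count rests on the spread borrowed from the other groups. At an unadjusted p under 0.05 these fits gave 2383 and 2104 probe sets. With the replicate number as a block, 7 were called, 2 higher and 5 lower. The replicate differences of ATR1_OE and MYB51_OE correlated at -0.00415, so the numbers were not taken as a pairing. Other floors, limma without the trend and robust limma gave counts within 1.5 times the main one. Every called difference kept its sign in all alternatives where it was tested, but most of these could not have reversed it. The groups did not overlap at any call, so leaving out 1 array could not change a sign. The smaller fits, the filters, the block and the limma variants left the differences themselves unchanged. The sign was open to change mainly under quantile normalization. Of the 72 called probe sets described, 52 stayed called after quantile normalization, 45 without the filter and 11 without MYB51_OE replicate 1, the array whose loss cost most calls. Apart from the construction of the smaller fits, the cause of these shifts was not tested.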

Other observations

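Of the called probe sets, 36 have 1 gene with a RefSeq symbol, 13 higher and 23 lower in ATR1_OE. Those not described above were chosen after their values were seen. Among the higher ones, SDP1, a lipase that opens the breakdown of stored oil, gave 254.9 and 343.4 in ATR1_OE against 159.9 and 111.3 in MYB51_OE (difference 1.15; limma adjusted p = 0.0430). APA1, an aspartic proteinase, gave 6349.5 and 5736.5 against 3492.2 and 3941.2 (difference 0.70; limma adjusted p = 0.0123). DI19, named for induction by drought, gave 4088.5 and 4248.3 against 2154.9 and 2191.1 (difference 0.94; limma adjusted p = 0.0341). The replicates of DI19 lay close together in both lines, yet its call was lost when any 1 array was left out, at 0.91 to 0.97. ALDH7B4, an aldehyde dehydrogenase, was called at 0.97, UBC30, a ubiquitin-conjugating enzyme, at 1.04, KELP at 1.55 and MYBC1 at 1.54, with 1 MYB51_OE array of MYBC1 at the floor.

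Among the lower ones, GSA1, an enzyme that makes the precursor of chlorophyll and haem, gave 1077.3 and 880.4 in ATR1_OE against 1861.2 and 1714.4 in MYB51_OE (difference -0.88; limma adjusted p = 0.0463). GPDHp, annotated as a plastid glycerol-3-phosphate dehydrogenase, gave 194.8 and 238.6 against 432.7 and 457.6 (difference -1.05; limma adjusted p = 0.0128). HLL, a ribosomal protein of the mitochondrion, gave 50.9 and 39.7 against 136.3 and 93.4 (difference -1.33; limma adjusted p = 0.0324). FANCM, a helicase that limits crossovers at meiosis, gave 10.9 and 15.0 against 44.9 and 40.1, with 1 ATR1_OE array at the floor (difference -1.56; limma adjusted p = 0.0204). The remaining 5, ZCF125, CIL, ATLP-1, IQD26 and NIH, were called at -1.86, -1.70, -1.40, -1.23 and -0.86. Like that of DI19, the calls of SDP1 and MYBC1 were lost without any 1 array, at 0.89 to 1.41 and 1.01 to 2.07. So were those of GSA1 and NIH, at -1.02 to -0.73 and -0.99 to -0.72. Each other gene of this section lost its call without at least 1 ATR1_OE array. Without MYB51_OE replicate 1 all 16 genes of this section lost their calls, with SDP1 at 1.41, APA1 at 0.61, GSA1 at -0.82, GPDHp at -1.09, HLL at -1.05 and FANCM at -1.48.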
